A study of Mus musculus with 17 samples.

Results

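The data describe 7 genes of alkylation repair and mismatch repair in mouse erythroid blasts: Mgmt, Alkbh2, Alkbh3, Mpg, Msh3, Msh6 and Pms2. They were picked by name with their levels in the 5 groups below already known, so these levels are given as a description, with no test. All 7 were found among the 26029 genes of the count table of model 1 and the 24659 genes of that of model 2. RNA-seq was carried out on blasts of 17 mice, with 1 library per mouse. Libraries are named by stage (PL, preleukaemic; L, leukaemic) and by the mouse number that ends their sample title. All mice carried a Spi1 transgene (TgSpi1), and all cells were kept in culture with erythropoietin (EPO) and diluted shortly before the RNA was taken. Model 1 (strain DBA2JxFVB/N) comprised 4 preleukaemic mice with intact Fanca (TgSpi1Fanca.wt, written TgSpi1FA+/+: PL_138, PL_445, PL_451 and PL_479), 3 preleukaemic mice without Fanca (TgSpi1Fanca.ko, written TgSpi1FA-/-: PL_40, PL_77 and PL_224) and 3 leukaemic TgSpi1FA-/- mice (L_26, L_28 and L_39). Model 2 (strain DBA2J) comprised 4 preleukaemic (PL_633, PL_663, PL_812 and PL_837) and 3 leukaemic (L_601, L_606 and L_921) TgSpi1FA+/+ mice, in which leukaemia followed repeated blood transfusions. The labels give no age, and the promoter of the transgene is not given in the sources used here. The cultured blasts came from sick animals, and both models differ in strain, in the RNA used per library (400 ng against 300 ng) and in the fragmentation time (8 min against 2 min), so that model, strain and protocol cannot be told apart. The columns of PL_40, PL_77 and PL_224 are named leukaemic in the table, whereas the sample titles call them preleukaemic, which was used.

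MGMT is a suicide enzyme that takes the alkyl group off the oxygen of a damaged guanine onto its own cysteine and is then degraded, so each molecule works once. ALKBH2 and ALKBH3 are oxidative demethylases that restore bases methylated at a ring nitrogen, and MPG is the DNA glycosylase that cuts out alkylated adenines and opens base excision repair. MSH6 and MSH3 belong to the protein complexes that recognise mismatches and small loops, and PMS2 acts as a nuclease in the steps that follow. An alkylated guanine that is left in place pairs with thymine, and it is the mismatch repair proteins that respond to this pair.

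RefSeq (GRCm38.p6) held a promoter sequence, 250 bases before to 50 bases after a start, for 7 of the 7 genes, with 8 sequences in all since Mgmt has 2 starts. Those of Mgmt, Alkbh3 and Pms2 are shown because these 3 genes had their lowest group mean in TgSpi1FA-/- leukaemic cells. Capitals mark the GC box GGGCGG and the CCAAT box on either strand, and neighbouring GC boxes may touch or overlap.
Mgmt first start, chr7:136894336-136894635, plus strand: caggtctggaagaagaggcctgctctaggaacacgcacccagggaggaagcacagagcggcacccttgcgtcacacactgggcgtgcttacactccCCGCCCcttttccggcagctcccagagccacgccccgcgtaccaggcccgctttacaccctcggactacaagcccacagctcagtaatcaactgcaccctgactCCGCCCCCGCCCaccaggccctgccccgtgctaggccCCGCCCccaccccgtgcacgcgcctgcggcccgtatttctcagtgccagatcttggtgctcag
Mgmt second start, chr7:136912848-136913147, plus strand: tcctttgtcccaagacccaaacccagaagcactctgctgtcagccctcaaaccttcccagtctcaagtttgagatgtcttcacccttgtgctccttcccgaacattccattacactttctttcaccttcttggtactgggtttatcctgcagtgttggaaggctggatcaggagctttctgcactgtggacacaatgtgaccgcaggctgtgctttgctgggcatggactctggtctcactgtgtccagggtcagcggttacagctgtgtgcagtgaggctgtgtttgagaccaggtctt
Alkbh3, chr2:94010681-94010980, minus strand: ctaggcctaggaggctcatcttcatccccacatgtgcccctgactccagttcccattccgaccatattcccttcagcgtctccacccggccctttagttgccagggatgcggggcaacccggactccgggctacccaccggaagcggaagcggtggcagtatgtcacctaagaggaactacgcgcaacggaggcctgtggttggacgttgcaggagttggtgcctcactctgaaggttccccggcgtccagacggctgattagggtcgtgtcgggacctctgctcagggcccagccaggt
Pms2, chr5:143909751-143910050, plus strand: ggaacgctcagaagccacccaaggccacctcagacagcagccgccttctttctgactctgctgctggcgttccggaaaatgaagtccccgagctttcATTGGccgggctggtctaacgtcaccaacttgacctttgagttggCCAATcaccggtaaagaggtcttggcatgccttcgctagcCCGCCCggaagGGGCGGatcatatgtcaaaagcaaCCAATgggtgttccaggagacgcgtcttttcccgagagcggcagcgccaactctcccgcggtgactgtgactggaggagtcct
The first Mgmt promoter held 20 CG dinucleotides and 4 GC boxes, and the second held 3 CG dinucleotides and no GC box. The median over all 32817 RefSeq promoters of this length was 7 CG dinucleotides. The Alkbh3 promoter held 18 CG dinucleotides and neither box, and that of Pms2 held 19, with 2 GC boxes and 3 CCAAT boxes. GGGCGG occurs in 35.6% and CCAAT in 37.4% of all these promoters. The sequence GAGGAAGT, a motif of the type bound by SPI1, was also searched on both strands, where it occurs in 3.20% of all promoters. It was not present in the 4 sequences shown. The counts of reads per gene do not say which Mgmt start was used.

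Libraries of model 1 held 29964576 to 38217654 counts, and those of model 2 held 37726753 to 40514205. A second table of other counts for 7 of the model 1 mice, without the TgSpi1FA-/- preleukaemic mice, reached 35497594 to 171572736 counts per library. Levels are given as CPM, the counts relative to the library size after scaling by edgeR's TMM method. Fanca was between 28.2 and 83.5 CPM in the TgSpi1FA+/+ and between 0.615 and 2.30 CPM in the TgSpi1FA-/- mice of model 1, as labelled. Spi1, the transgene, was at 3.88 CPM in the leukaemic library L_39, against 220 CPM in L_28 and 630 CPM in L_26, so values that rest on L_39 are also given without it. The preleukaemic libraries PL_445 and PL_479 were nearly alike in the first table (chi-square per degree of freedom of 8.53, against 114 to 372 for the other pairs of model 1) but not in the second (350). Counting them as 1 library moved no log2 difference of the 7 genes by more than the spread between replicates. They belong to a compared group only between the preleukaemic genotypes and in the second table, so the other differences could hardly move. All 11 erythroid markers, such as Gata1 and Klf1, exceeded 3 counts in at least 1 library of either model, whereas lymphoid markers together stayed at or under 0.384 CPM and myeloid markers at or under 1.78 CPM. Markers of other cell types were present in part of the libraries. Mast cell markers summed to 0.330 to 92.8 CPM in model 1 and to 3.73 to 155 CPM in model 2, megakaryocyte markers to 45.5 to 274 CPM and 11.01 to 117 CPM, and stromal and endothelial markers to 1.04 to 276 CPM and 0 to 31.7 CPM. In bulk samples, fewer cells of a type and less RNA per cell cannot be told apart.

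Mgmt (ENSMUSG00000054612) spans chr7:136894614-137130266 on the plus strand of GRCm38. In model 1 it was present in each of the 7 preleukaemic libraries and had no read in the 3 leukaemic libraries. In the TgSpi1FA+/+ preleukaemic mice it had 171 counts (4.86 CPM) in PL_138, 359 counts (11.2 CPM) in PL_445, 678 counts (21.7 CPM) in PL_451 and 383 counts (12.2 CPM) in PL_479. In the TgSpi1FA-/- preleukaemic mice it had 392 counts (12.7 CPM) in PL_40, 351 counts (11.5 CPM) in PL_77 and 285 counts (8.33 CPM) in PL_224. These preleukaemic groups overlapped, with means of 12.5 ± 6.96 CPM (SD, n = 4) and 10.8 ± 2.25 CPM (SD, n = 3). In the leukaemic mice L_26, L_28 and L_39 it had 0 counts, where 3 counts per library is the limit that a count of 0 allows, and this limit covers counting error only. Against that floor, the Mgmt level in these leukaemic TgSpi1FA-/- libraries was at least 138.5-fold lower than in preleukaemic libraries of that genotype. The bound lay between 127-fold and 154-fold when each mouse was left out in turn. Against TgSpi1FA+/+ preleukaemic cells the bound was 159-fold (120-fold to 192-fold with a mouse left out). These bounds hold for the counts of the first table only. In the second table L_26 had 0.283 CPM, above its floor of 0.0822 CPM in the first.

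**Figure D1:**
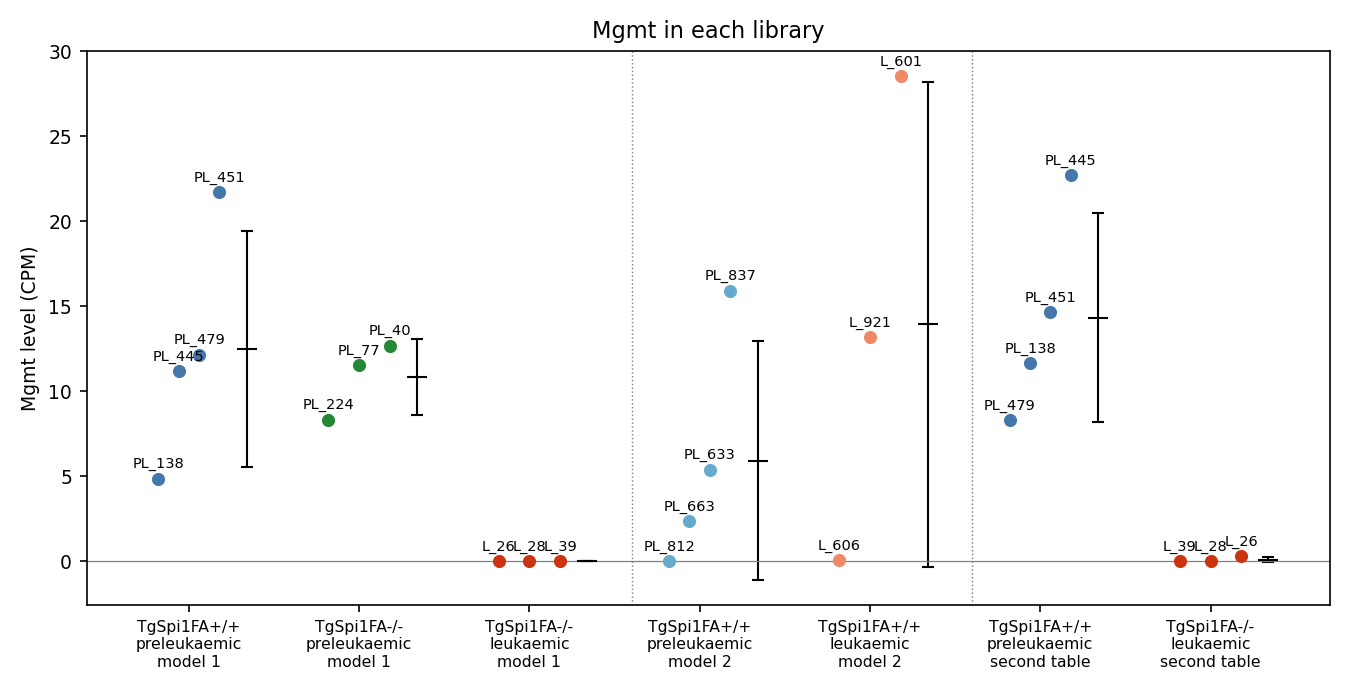
Mgmt level in CPM (vertical axis, linear) in each library, by genotype, stage and table; points are mice, named by number, and the bars give the mean and SD. The 3 TgSpi1FA-/- leukaemic libraries of model 1 lie at 0, whereas in model 2 a library at or near 0 occurs both in the preleukaemic group (PL_812) and in the leukaemic group (L_606).

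The second table again had Mgmt reads in each preleukaemic library and few or none in the leukaemic libraries. Its depth was greater for each library but L_39, which had 35497594 counts against 38161124 in the first table. The order of the preleukaemic libraries also differed, with PL_451 the highest in the first table and PL_445 in the second. Mgmt had 1252 counts (11.6 CPM) in PL_138, 1996 counts (22.7 CPM) in PL_445, 1347 counts (14.7 CPM) in PL_451 and 1008 counts (8.30 CPM) in PL_479. The leukaemic libraries had 50 counts (0.283 CPM) in L_26, 1 count (0.0069 CPM) in L_28 and 0 counts in L_39. Both groups were again apart, but in L_26 a low number of Mgmt reads was present. The mean was 14.3 ± 6.16 CPM (SD, n = 4) in preleukaemic and 0.0965 ± 0.161 CPM (SD, n = 3) in leukaemic cells, 149-fold lower, and between 99.0-fold and 169-fold lower with a mouse other than L_26 left out. Without L_26, the other two leukaemic libraries were under 3 counts, and the ratio was 279-fold against the floor of 3 counts per library. These are the same mice as in the first table, so this is not a second set of animals.

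In model 2 a loss of Mgmt reads was seen in single mice at either stage. The preleukaemic libraries had 214 counts (5.39 CPM) in PL_633, 94 counts (2.35 CPM) in PL_663, 0 counts in PL_812 and 644 counts (15.9 CPM) in PL_837. The leukaemic libraries had 1113 counts (28.5 CPM) in L_601, 3 counts (0.0762 CPM) in L_606 and 464 counts (13.2 CPM) in L_921. Both groups thus held a library at or under 3 counts and overlapped in part, with L_601 above every preleukaemic library and with means of 5.92 ± 7.03 CPM (SD, n = 4) and 13.9 ± 14.3 CPM (SD, n = 3). The log2 difference was 1.23 with a standard error of 1.79. Over both models, 5 of 17 libraries were at or under 3 counts of Mgmt, namely all 3 TgSpi1FA-/- leukaemic libraries, 0 of the 7 preleukaemic libraries of model 1, and 1 of 4 preleukaemic and 1 of 3 leukaemic libraries of model 2.

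Few annotated protein-coding genes lie within 1 Mb of Mgmt. Ebf3 had at most 1 count in a library of model 1 and none in model 2. Glrx3, which encodes a cytosolic glutaredoxin with a role in iron handling and starts 307.3 kb from the end of Mgmt, had between 57.9 and 86.8 CPM in the 10 libraries of model 1. It was present at 72.1 to 86.8 CPM in the leukaemic libraries that had no Mgmt read, and its log2 difference from TgSpi1FA-/- preleukaemic cells was 0.31 (standard error 0.13, with edgeR's quasi-likelihood adjusted p = 0.121). In model 2 that difference was 1.0 (standard error 0.17, adjusted p = 0.162 from the same edgeR test). The Glrx3 change of model 1 minus that of model 2 was -0.71 on the log2 scale (edgeR adjusted p = 0.0465), a call that held in 4 of the 13 fits with a mouse left out (adjusted p of 0.0314 to 0.110). The gene 9430038I01Rik, between Ebf3 and Glrx3, differed by -0.14 (standard error 0.35) in model 1 on the log2 scale. Both Glrx3 and 9430038I01Rik thus had reads in the leukaemic libraries of model 1 that had none of Mgmt.

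The 5 protein-coding genes whose log2 CPM followed that of Mgmt most closely over the 10 libraries of model 1, among 11328 candidates, were Fuz, Mbnl2, Cnnm2, Abca7 and Marchf2, with Pearson's r of 0.991, 0.989, 0.981, 0.979 and 0.978. These libraries fall into groups in which the 3 leukaemic ones are low for each of these genes, so the 10 points are not independent. Fuz was between 2.82 and 3.23 CPM in the leukaemic and between 7.33 and 9.81 CPM in the preleukaemic libraries. Over the 7 libraries of model 2, r with Mgmt was 0.52 for Fuz, 0.29 for Abca7, 0.12 for Mbnl2, -0.06 for Cnnm2 and -0.05 for Marchf2.

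Per kilobase of exons (RPKM, with GENCODE M21 exon lengths), Msh6 had the highest level of the 7 genes, with a median of 50.8 RPKM over the 17 libraries (21.9 to 84.2 RPKM). Alkbh2 followed with 12.0 RPKM (5.51 to 25.5 RPKM), then Alkbh3 with 9.05 RPKM (0.554 to 12.0 RPKM) and Mpg with 8.88 RPKM (6.22 to 20.8 RPKM). Pms2 had 4.42 RPKM (2.48 to 5.87 RPKM), Msh3 4.0 RPKM (2.74 to 6.17 RPKM) and Mgmt 2.88 RPKM (0 to 9.86 RPKM). The ranges of all neighbours in this order overlapped. Among the 7 genes, Mgmt thus had the lowest median, and it alone fell to 3 counts or fewer in a library.

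Of the oxidative demethylases, Alkbh3 (chr2:93980550-94010807, minus strand) was lower in each leukaemic than in each preleukaemic TgSpi1FA-/- library. Its level was 31.9 CPM in PL_40, 30.8 CPM in PL_77 and 37.8 CPM in PL_224, and in the leukaemic mice it was 17.4 CPM in L_26, 20.6 CPM in L_28 and 1.75 CPM (69 counts) in L_39. The library L_39 stood far below the other two, and it is the one in which Spi1 was at 3.88 CPM. The part of this library in the difference was measured by leaving it out, and the log2 difference of -1.34 (standard error 0.68) was then -0.79. The TgSpi1FA+/+ preleukaemic mice had 26.9 CPM in PL_138, 35.5 CPM in PL_445, 18.7 CPM in PL_451 and 32.9 CPM in PL_479, a range that reached down to the levels of L_26 and L_28. In the second table Alkbh3 was again lowest in L_39, with 2.59 CPM (95 counts) against 11.1 CPM in L_26, 15.7 CPM in L_28 and 14.8 to 29.9 CPM in the preleukaemic mice, where L_28 and PL_451 overlapped.

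In model 2 Alkbh3 lay the other way. It was 18.6 CPM in PL_633, 21.9 CPM in PL_663, 28.6 CPM in PL_812 and 17.8 CPM in PL_837, and in the leukaemic mice 35.3 CPM in L_601, 29.4 CPM in L_606 and 31.5 CPM in L_921. All 3 leukaemic libraries were above all 4 preleukaemic libraries, L_606 by a small margin over PL_812. The log2 difference was 0.56 (standard error 0.25).

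Alkbh2 (chr5:114123926-114128218, minus strand) showed no separation of groups in model 1. In the TgSpi1FA+/+ preleukaemic mice it was 11.8 CPM in PL_138, 9.80 CPM in PL_445, 9.42 CPM in PL_451 and 10.2 CPM in PL_479, and in the TgSpi1FA-/- preleukaemic mice 21.2 CPM in PL_40, 9.78 CPM in PL_77 and 13.7 CPM in PL_224. The leukaemic TgSpi1FA-/- mice had 14.5 CPM in L_26, 14.4 CPM in L_28 and 6.14 CPM in L_39, so that L_39 was again the lowest and the groups overlapped. The log2 difference between TgSpi1FA-/- leukaemic and preleukaemic cells was -0.35 (standard error 0.39), and -0.02 without L_39 or without PL_40. In model 2 Alkbh2 was between 9.37 and 15.1 CPM in the preleukaemic mice, and in the leukaemic mice 13.8 CPM in L_601, 28.5 CPM in L_606 and 28.1 CPM in L_921. The leukaemic mice L_606 and L_921 lay above all preleukaemic mice, whereas L_601 lay within their range (log2 difference 0.89, standard error 0.34).

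The glycosylase gene Mpg (chr11:32226505-32232700, plus strand) was somewhat higher in TgSpi1FA-/- leukaemic cells. It was 26 CPM in PL_40, 31.2 CPM in PL_77 and 23.3 CPM in PL_224 before leukaemia, and 32.7 CPM in L_26, 45.7 CPM in L_28 and 36.5 CPM in L_39. The groups did not overlap, but PL_77 and L_26 were close, and the TgSpi1FA+/+ preleukaemic mice reached 33.3 CPM. In model 2 Mpg was between 33.2 and 44.6 CPM in the preleukaemic mice, and 34.2 CPM in L_601, 46.0 CPM in L_606 and 78.0 CPM in L_921. The log2 difference there was 0.49 (standard error 0.30), and 0.11 without L_921, so a single mouse accounts for most of it. In model 1 it was 0.51 (standard error 0.19), and it was 0.22 (standard error 0.33) in the second table, where it was -0.02 without L_39.

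**Figure D2:**
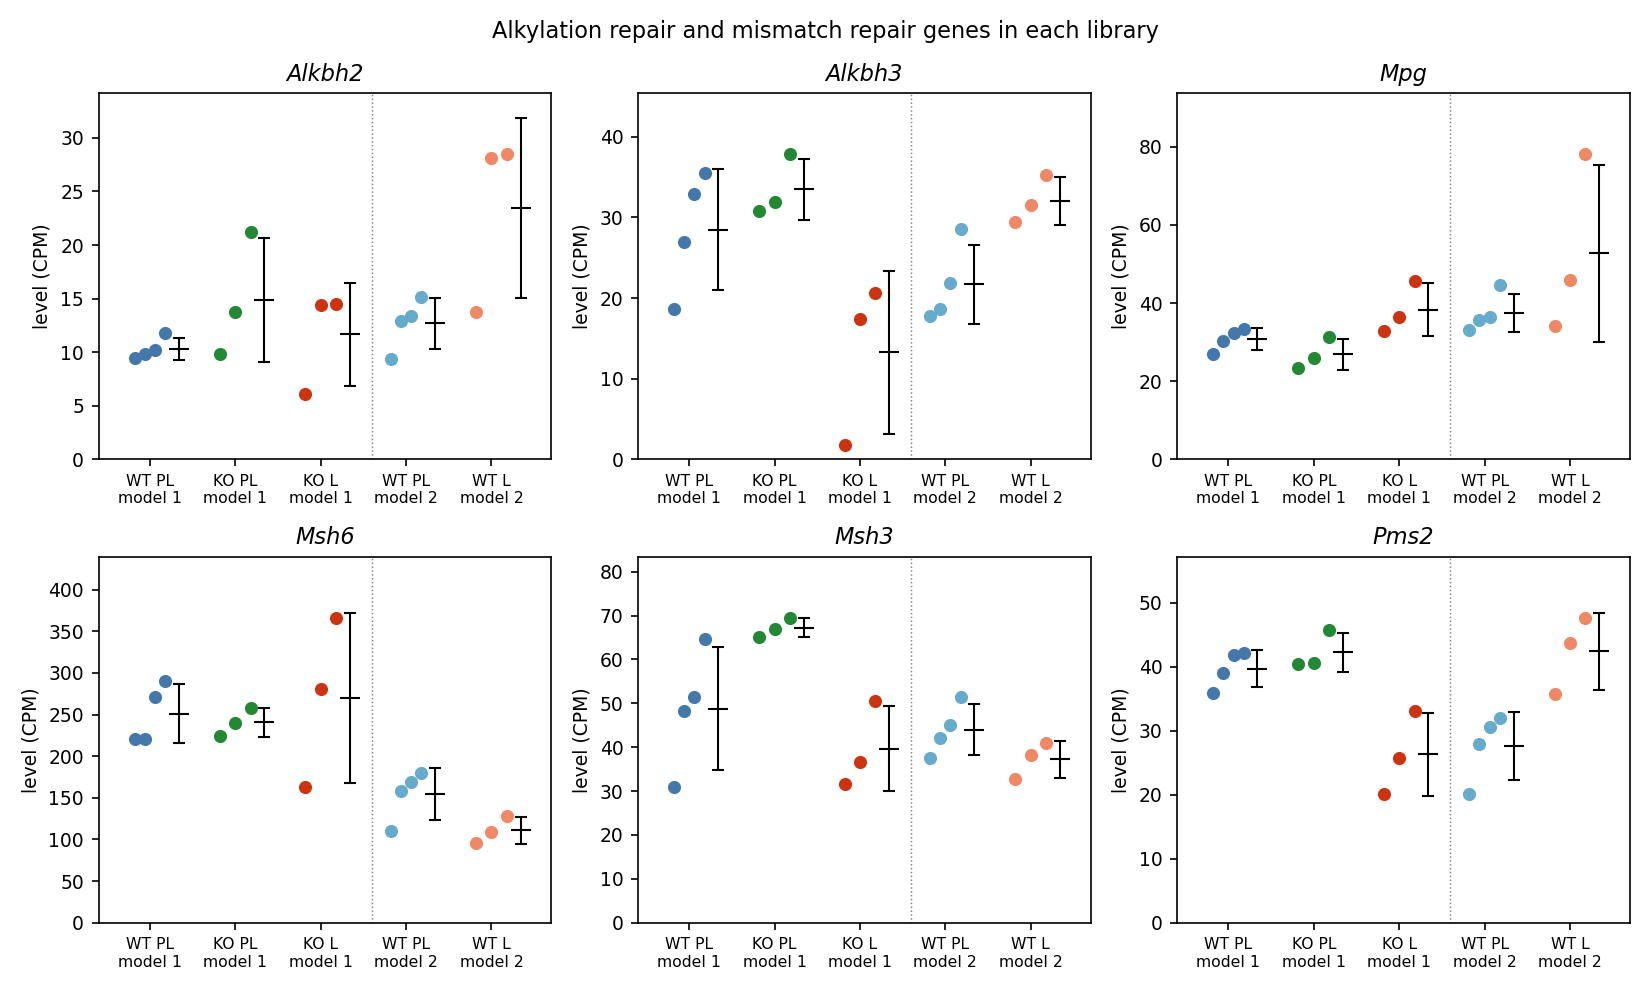
Levels in CPM (linear axes from 0) of the 6 other genes in the 17 libraries by group; WT is TgSpi1FA+/+, KO is TgSpi1FA-/-, PL is preleukaemic and L is leukaemic, points are mice, and the bars give the mean and SD. Alkbh3 and Pms2 lie lower in the leukaemic group of model 1 and higher in that of model 2 than in the preleukaemic group of the same model and genotype, and the lowest leukaemic Alkbh3 point of model 1 (1.75 CPM) is L_39.

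Of the mismatch repair genes, Pms2 (chr5:143909964-143933968, plus strand) was lower in TgSpi1FA-/- leukaemic cells and differed in direction between the models. It was 40.4 CPM in PL_40, 45.8 CPM in PL_77 and 40.6 CPM in PL_224, and 33.1 CPM in L_26, 20.1 CPM in L_28 and 25.7 CPM in L_39. All 3 leukaemic libraries were also below the 35.9 to 42.1 CPM of the 4 TgSpi1FA+/+ preleukaemic libraries. In model 2 it was 20.1 CPM in PL_633, 30.5 CPM in PL_663, 32.0 CPM in PL_812 and 27.9 CPM in PL_837, and in the leukaemic mice 43.7 CPM in L_601, 35.8 CPM in L_606 and 47.6 CPM in L_921, all above the preleukaemic mice. The log2 difference was -0.68 (standard error 0.19) in model 1 and 0.62 (standard error 0.24) in model 2. In the second table Pms2 was 29.5 CPM in L_26, 21.0 CPM in L_28 and 26.8 CPM in L_39 against 28 to 38.4 CPM in the preleukaemic mice, with L_26 above PL_451, and the log2 difference was -0.41 (standard error 0.25).

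Msh3 (chr13:92211872-92355003, minus strand) was highest in the TgSpi1FA-/- preleukaemic mice. It was 69.4 CPM in PL_40, 65.1 CPM in PL_77 and 67.0 CPM in PL_224, whereas the leukaemic mice had 50.6 CPM in L_26, 31.7 CPM in L_28 and 36.7 CPM in L_39. The TgSpi1FA+/+ preleukaemic mice, with 64.7 CPM in PL_138, 48.2 CPM in PL_445, 30.8 CPM in PL_451 and 51.5 CPM in PL_479, spread over the range of the leukaemic mice and up to near that of the TgSpi1FA-/- preleukaemic mice. The log2 difference of TgSpi1FA-/- leukaemic from TgSpi1FA-/- preleukaemic cells was -0.76 (standard error 0.26). Set against TgSpi1FA+/+ preleukaemic cells in the second table, it was 0.07 (standard error 0.32), with means of 39.8 ± 2.29 CPM (SD, n = 3) and 37.9 ± 12.5 CPM (SD, n = 4). In model 2 Msh3 was between 37.4 and 51.5 CPM before leukaemia and between 32.7 and 41.0 CPM in leukaemic cells (log2 difference -0.24, standard error 0.20).

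Msh6 (chr17:87975062-87990892, plus strand) spread widely among the leukaemic mice of model 1, with 163 CPM in L_26, 280 CPM in L_28 and 366 CPM in L_39. The TgSpi1FA-/- preleukaemic mice were close together, with 240 CPM in PL_40, 223.7 CPM in PL_77 and 258 CPM in PL_224, and lay inside that spread. The log2 difference was 0.17 (standard error 0.26), and -0.10 without L_39. In model 2 Msh6 was between 110 and 180 CPM in the preleukaemic mice, and 95.2 CPM in L_601, 128 CPM in L_606 and 109 CPM in L_921 (log2 difference -0.48, standard error 0.22). The groups of model 2 overlapped through PL_812 and L_606.

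Counted over the 7 genes, all of which passed the filter on low counts in each comparison (Mgmt in model 1 through its preleukaemic groups), TgSpi1FA-/- leukaemic and preleukaemic libraries did not overlap for 5, namely Mgmt, Alkbh3, Msh3 and Pms2, which were lower, and Mpg, which was higher. Groups did not overlap for 38.7% of all 13393 genes tested in this comparison, 19.4% higher and 19.3% lower. The thresholds of an adjusted p below 0.05 with at least a 1.5-fold change were passed by 13.3% of all genes (6.82% higher and 6.49% lower), and of the 7, Mgmt and Pms2 were past both thresholds. Between TgSpi1FA-/- and TgSpi1FA+/+ preleukaemic cells, Msh3 was the only one of the 7 without overlap (8.53% of all genes, 4.26% higher and 4.27% lower), with PL_138 just under PL_77, and 0 of the 7 passed the thresholds, as 0.00747% of all genes did. The log2 differences there lay between -0.20 (Mgmt, standard error 0.50) and 0.53 (Alkbh2, standard error 0.36, and 0.19 without PL_40). In the second table the groups did not overlap for Mgmt alone (18.6% of all 16799 genes, 10.5% higher and 8.07% lower), and 0 of the 7 passed the thresholds (1.59% of all genes, 1.35% higher and 0.244% lower). In model 2 they did not overlap for Alkbh3 and Pms2 (20.1% of all 12970 genes, 9.65% higher and 10.4% lower), and 0% of all genes passed the thresholds there. As the 7 genes were chosen with these values known, nothing is read from these counts.

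**Figure D3:**
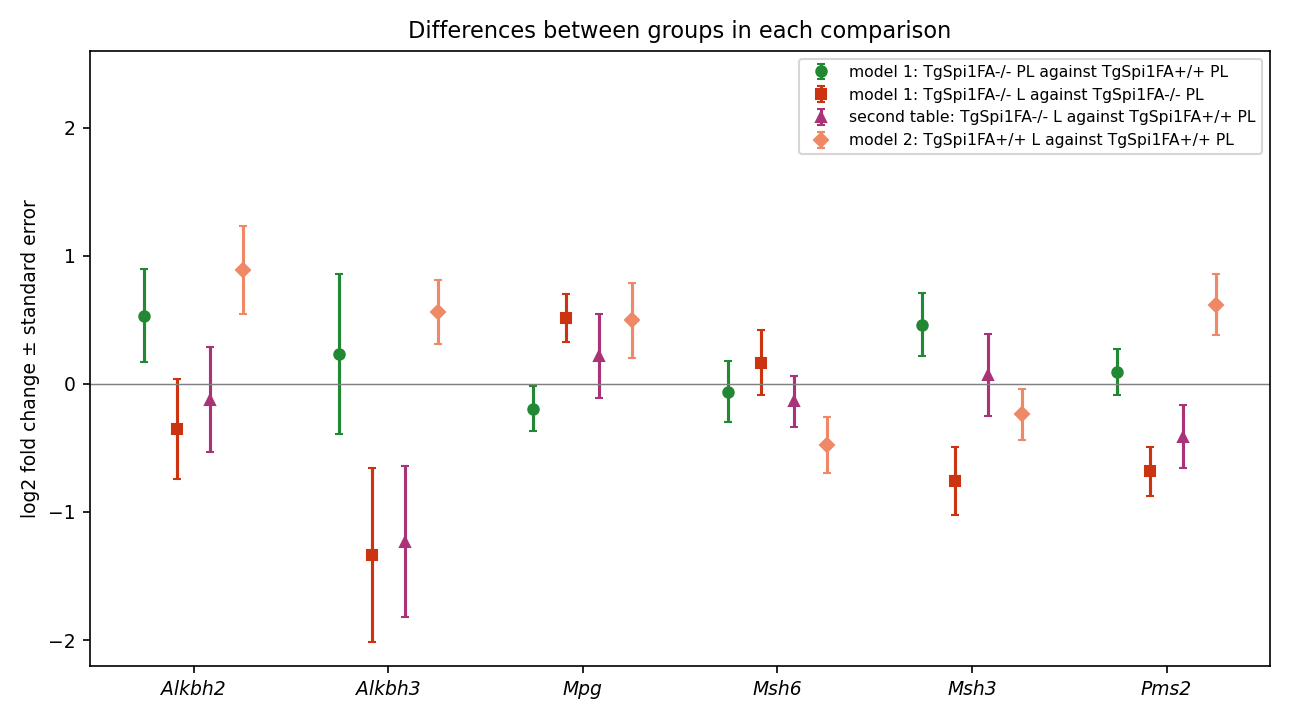
Log2 fold change (points) with its standard error (bars) of 6 genes in 4 comparisons, PL being preleukaemic and L leukaemic; Mgmt is left out because a group without reads gives only a bound. Alkbh3 and Pms2 are below 0 in TgSpi1FA-/- leukaemic cells in both tables and above 0 in the leukaemic cells of model 2, whereas Mpg is above 0 in all 3 leukaemic comparisons.

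The leukaemic difference of model 1 minus that of model 2 was -1.91 for Alkbh3 (standard error 0.76, and -1.38 without L_39), -1.31 for Pms2 (standard error 0.30), -1.25 for Alkbh2 (standard error 0.53), -0.53 for Msh3 (standard error 0.32), 0.63 for Msh6 (standard error 0.34) and -0.00 for Mpg (standard error 0.37), all on the log2 scale. In that fit 4.61% of all 14597 genes were past the thresholds (2.76% higher and 1.85% lower), among them Mgmt and Pms2, both lower; as the 7 genes were chosen with these values known, nothing is read from that count. Marker genes of cell types also differed between the stages. In model 1 the 11 erythroid markers summed to 2467 to 3910 CPM in the TgSpi1FA-/- leukaemic and to 4229 to 5130 CPM in the TgSpi1FA-/- preleukaemic libraries, with 2 of 11 passing the test, both lower (Klf1, an erythroid transcription factor, and Hbb-bt, a beta globin). The 5 megakaryocyte markers summed to 173 to 274 CPM against 45.5 to 59.8 CPM, with 1 of 5 passing the test (Itga2b, higher). In the TgSpi1FA+/+ preleukaemic libraries they summed to 59.7 to 201 CPM, which overlapped the leukaemic range. In the second table their sums overlapped, with 140 to 395 CPM in leukaemic and 23.6 to 202 CPM in preleukaemic libraries, and 0 of 5 passed. Between TgSpi1FA-/- leukaemic and preleukaemic libraries of model 1, 0 of 12 genes of S and G2/M phase passed both thresholds of the edgeR test, with 2 at an unadjusted p under 0.05. Mcm7 (edgeR, adjusted p = 0.0489) was lower in leukaemic libraries but missed the fold threshold, at 1.33-fold. The sums of the 12 genes overlapped, with 4261 to 6336 CPM in leukaemic and 5749 to 5941 CPM in preleukaemic libraries. In the same groups the 6 mast cell markers summed to 0.330 to 11.3 CPM in leukaemic and 2.36 to 32.0 CPM in preleukaemic libraries, and the 6 stromal and endothelial markers to 1.04 to 7.44 CPM and 9.82 to 276 CPM. No marker of these lists passed edgeR's test there (0 of 4 and 0 of 1 tested), with 1 in each at an unadjusted p under 0.05. In the second table the stromal and endothelial sums overlapped (0.956 to 7.61 CPM in leukaemic, 0.08 to 27.1 CPM in preleukaemic libraries). Of the 4 markers tested there, 3 were higher in leukaemic libraries and 1, Col1a2, was lower (log2 difference -1.74). Cdh5, an endothelial cadherin, was the only one to pass, higher in leukaemic libraries (edgeR, adjusted p = 0.0407). In model 2 the mast cell markers summed to 97.8 to 155 CPM in leukaemic and 3.73 to 59.1 CPM in preleukaemic libraries, with 0 of 5 tested passing edgeR's test and 3 at an unadjusted p under 0.05. The erythroid markers of model 2 summed to 2480 to 4163 CPM against 4452 to 5747 CPM, with 0 of 11 passing edgeR's test and 5 at such a p. The changes of the models differed for Ms4a2, a chain of the IgE receptor of mast cells, by -10.0 on the log2 scale (edgeR, adjusted p = 0.0369). The part of these markers in the values of the 7 genes was not tested.

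The other genes of these pathways were taken as 52 genes in 4 lists: base excision repair (22), the mismatch repair core (7), replication factors shared with mismatch repair (13) and AlkB homologues with their ASCC partners (10). These lists were also chosen with earlier results of these data known, so the shares of list genes that passed are given as a description. Between TgSpi1FA-/- leukaemic and preleukaemic cells, 5 of 51 tested genes passed (9.80%, against 13.3% of all genes), 4 lower and 1 higher, with 15 at an unadjusted p under 0.05 (32.4% of all genes) and a median log2 difference of -0.11 over the lists and -0.00 over all genes. The AlkB homologues Alkbh1 and Fto fell, by 1.03 (adjusted p = 0.0287) and by 0.71 (adjusted p = 0.0259) on the log2 scale in edgeR's quasi-likelihood test. Pold1, the catalytic subunit of DNA polymerase delta, fell by 0.66 (edgeR, adjusted p = 0.0346). Fto and Pold1 were also lower in the leukaemic cells of model 2, with log2 differences of -0.96 (standard error 0.25) and -0.69 (standard error 0.34). Alkbh1 was higher there (0.64, standard error 0.19). Smug1, a uracil glycosylase, rose by 1.09 (edgeR, adjusted p = 0.0393), with 29.7 to 38.8 CPM in leukaemic and 13.7 to 18.4 CPM in preleukaemic libraries. None of these 5 calls held without each of the 6 mice in turn, and 0 were left without PL_224, 1 without PL_77, L_28 or L_39, 2 without PL_40 and 7 without L_26. In the mismatch repair core 0 of 6 tested genes passed edgeR's test (1 at an unadjusted p under 0.05, and 0 with DESeq2).

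Between the preleukaemic genotypes, in the second table and between the stages of model 2, no gene of the 4 lists passed edgeR's test. Between the stages of model 2, 0 of all 12970 genes passed it. Between TgSpi1FA-/- and TgSpi1FA+/+ preleukaemic cells 5 of 51 had an unadjusted p under 0.05 (8.65% of all genes did), and DESeq2 called 0. Of 52 genes in the second table, 3 had such a p (18.6% of all genes did), and DESeq2 called 1, with a lower level. In model 2 14 of 51 had such a p, where 19.9% of all genes did, and DESeq2 called Polb (0.71) and Rpa3 (0.99), both higher in leukaemic cells.

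**Figure D4:**
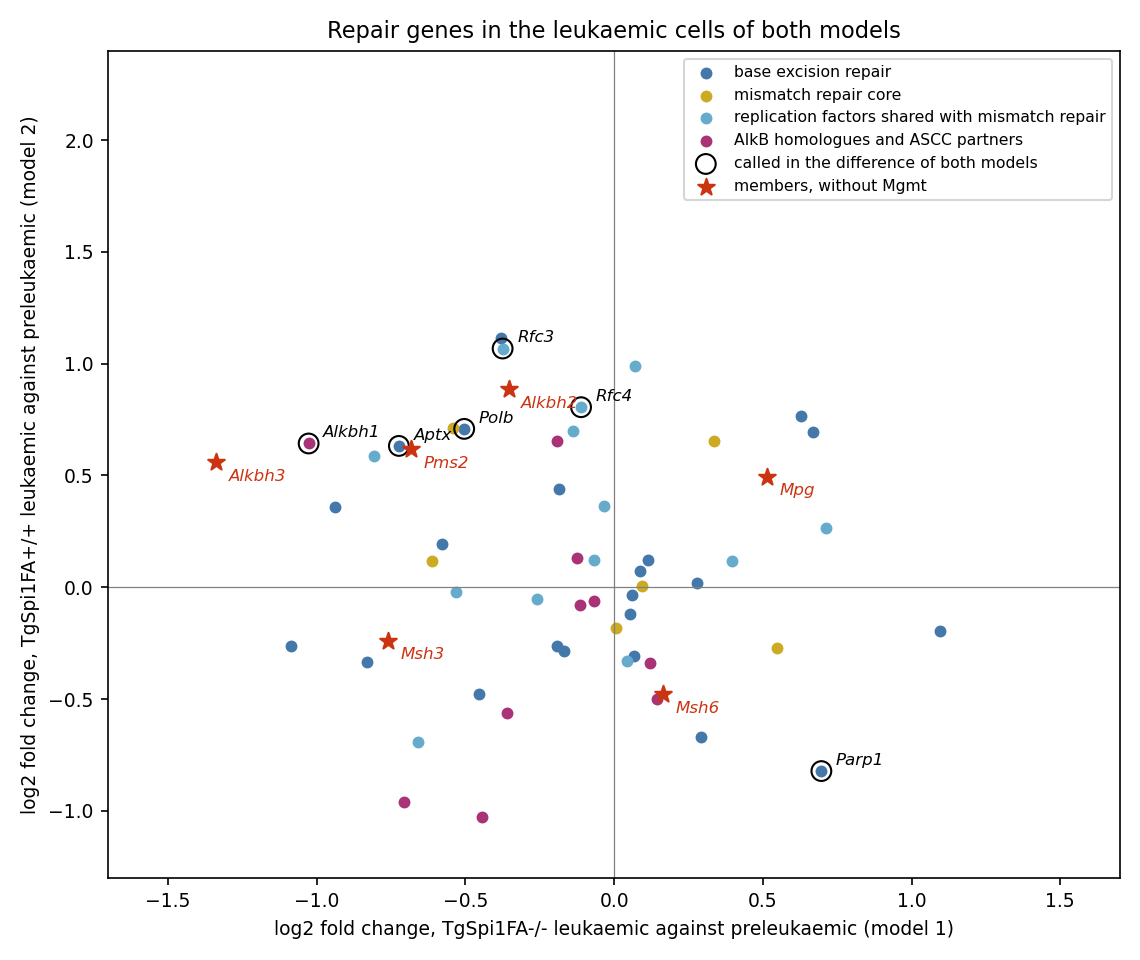
Log2 fold change between leukaemic and preleukaemic cells in model 1 (TgSpi1FA-/-, horizontal) and model 2 (TgSpi1FA+/+, vertical) for the genes of the 4 lists (dots, coloured by list) and for 6 of the 7 genes described (stars); Mgmt is left out. Circles mark the 6 list genes whose difference between the models passed the test; 5 of them lie to the upper left of the origin and Parp1 lies to the lower right.

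How far the leukaemic change of model 1 departed from that of model 2 was tested itself, and 6 of 52 list genes passed (11.5%, against 4.61% of all genes), 5 with a lower and 1 with a higher change in model 1. Alkbh1 had the largest difference, -1.68 on the log2 scale (standard error 0.32, edgeR adjusted p = 0.0285), with 24.6 to 46.8 CPM in leukaemic and 56.7 to 86.4 CPM in preleukaemic TgSpi1FA-/- libraries. In model 2 Alkbh1 was 83.7 to 106 CPM in leukaemic and 48.1 to 70.9 CPM in preleukaemic libraries, so its groups were apart in both models and in opposite directions. Polb, the gap-filling polymerase of base excision repair (-1.23, adjusted p = 0.0285 in edgeR), and Aptx, which removes adenylate from DNA ends (-1.37, edgeR adjusted p = 0.0353), also had a negative difference. So did the clamp loader subunits Rfc4 (-0.93, edgeR adjusted p = 0.0380) and Rfc3 (-1.45, edgeR adjusted p = 0.0383). In model 1 the log2 change itself was -0.11 (standard error 0.13) for Rfc4 and -0.37 (standard error 0.19) for Rfc3. In model 2 it was 0.81 (standard error 0.20) and 1.07 (standard error 0.29). For Polb and Aptx it was -0.50 and -0.72 in model 1, and 0.71 and 0.63 in model 2. Parp1, the sensor of DNA strand breaks, had a positive difference (1.5, edgeR adjusted p = 0.0484). The number of such genes was 0 without PL_77, PL_224, L_28, L_39 or L_921, 1 without L_601, 2 without PL_40, PL_633 or L_606, and 8 at most. Alkbh1 and Polb were the ones that also passed without a filter on low counts.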

How the data were processed

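The authors deposited read counts for each Ensembl gene with no normalization, for model 1 and model 2, and a further table of other counts for 7 mice of model 1. The submitters' processing notes name bcl2fastq 2.17.1.14, STAR 2.5.3a, HTSeq 0.6.1p1 and the builds mm10 and GRCm38, whereas the strand setting of the counting is not given in the sources used here. Reads of the parts of Alkbh2, Alkbh3, Mpg, Msh3, Msh6 and Pms2 that overlap a gene on the other strand are uncertain. So are reads of the parts that overlap Gm45280 (Mgmt), Gm27027 (Alkbh3), or Rsph10b and Gm42421 (Pms2) on the same strand. A deposited copy of the model 2 table was not used.

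Counts were filtered (filterByExpr), scaled by TMM and fitted with edgeR 4.0.16 (R 4.3.3) by glmQLFit and glmQLFTest, with all groups of a table in 1 fit and all 17 libraries over the shared genes for the difference of both models. A call needed a p below 0.05 after Benjamini-Hochberg adjustment and at least a 1.5-fold change. A group with at most 3 counts in each library was set to 3 counts per library, and its fold is a bound. RPKM used exon lengths of GENCODE M21. Single values of some genes in the lists are not reported here. The code was tested on simulated data. Each library bears its own mouse number, so p-values are taken to measure the spread between mice, and mouse and culture cannot be told apart. PL_445 and PL_479 were nearly alike in the first table, so that spread may be understated in the fits that hold these counts. Tests were made on the 52 pathway genes, and named genes were the 7 genes, the pathway genes called in a comparison (at most 8 each, by adjusted p), the 5 genes most like Mgmt, the protein-coding genes within 1 Mb of Mgmt, and Fanca and Spi1. The promoter motifs and the calls of single list genes under each alternative were examined once other values were known. The members and lists were chosen with earlier results of these data known. Alternatives were DESeq2 1.42.0 (its size factors or its Wald test), no filter, 1 CPM in 3 libraries, robust empirical Bayes, the adjusted p alone, only the compared groups, PL_445 and PL_479 as 1 library, and each mouse left out.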

Additional observations from a re-analysis of the deposited data

Results flagged for a closer look

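The leukaemic changes of both models differed by edgeR's test for 6 pathway genes. On the log2 scale, as model 1 minus model 2, the difference was -1.68 for Alkbh1, -1.23 for Polb and -1.37 for Aptx. It was -0.93 for Rfc4, -1.45 for Rfc3 and 1.5 for Parp1. Of 13 fits that each left a mouse out, the call held in 8 for Polb and 7 for Alkbh1. It held in 4 each for Aptx, Rfc4 and Rfc3, and in 2 for Parp1. Alkbh3 (-1.91, and -1.38 without L_39) and Pms2 (-1.31) were lower in each leukaemic than in each preleukaemic library of the TgSpi1FA-/- mice and higher in each leukaemic library of model 2. For both, chosen with these values known, the fitted difference is given as a description, with no test read from it. Fanca genotype, the way leukaemia arose, strain and library protocol all differ between the models, so their parts in these differences cannot be told apart.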

How the results depend on the processing

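Of 462 log2 differences of the 7 genes over the alternatives, 459 moved by less than the spread between replicates. That spread was wide for some genes, so large moves could stay within it. On the log2 scale its SD was 3.15 and 3.96 for Mgmt in preleukaemic and leukaemic cells of model 2, and 1.95 for Alkbh3 in leukaemic cells of model 1. Of the 462, 16 changed sign, 10 of them for the Mpg difference of both models, which lay at -0.00. That difference was between -0.25 and 0.41 with a mouse left out (0.41 without L_921), and that of Msh3 between -0.75 (without L_26) and -0.39. Mgmt in the second table differed by -7.21 on the log2 scale, and by -8.13 to -6.63 with a mouse left out, the former without L_26, against the floor of 3 counts. The 5 pathway genes called between TgSpi1FA-/- leukaemic and preleukaemic cells became 2 with no filter, 3 with PL_445 and PL_479 as 1 library, 1 with only the compared groups and 0 to 7 with a mouse left out. The 6 called in the difference of both models became 2 with no filter and 0 to 8 with a mouse left out, and DESeq2's Wald test called 9. It also called 1 in the second table and 2 in model 2, where edgeR called 0. The cause was not tested. Between TgSpi1FA-/- and TgSpi1FA+/+ preleukaemic cells the number was 0 in each alternative. No paired analysis was possible because the replicate numbers are mouse numbers, which no 2 groups share. With 3 or 4 mice per group, small changes of these genes were not detectable, and at this depth a count of 0 allows up to 3 counts.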
